A study of Mus musculus with 12 samples.

Results

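The oxidative phosphorylation genes described here are the 124 of 18467 rows of a mouse macrophage count table whose symbols begin with mt-, Ndufa, Ndufb, Ndufc, Ndufs, Ndufv, Sdha, Sdhb, Sdhc, Sdhd, Uqc, Cox4, Cox5, Cox6, Cox7, Cox8 or Atp5. The rule used names only and no measured value. It found 20 mitochondrially encoded rows, of which 13 code for protein, 2 for ribosomal RNA and 5 for transfer RNA. The other 104 rows are nuclear: 76 structural subunits, 16 assembly factors or regulators, 11 pseudogenes or gene copies and 1 tissue-restricted isoform, Cox6a2. By complex, the nuclear structural subunits number 36 for complex I, 4 for complex II, 8 for complex III, 11 for complex IV and 17 for complex V. Ndufa4 was counted with complex IV, where its protein is now placed.

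Oxidative phosphorylation takes electrons from NADH and succinate along complexes I to IV in the inner mitochondrial membrane, and complex V, the ATP synthase, uses the proton gradient they build to make ATP. Complexes I, III, IV and V join subunits encoded in the mitochondrial genome to subunits encoded in the nucleus, whereas complex II is encoded in the nucleus alone. The mitochondrial genome is transcribed as long precursors from both strands, which are then cut into single transcripts, while each nuclear subunit has its own promoter. Macrophages are known to shift between glycolysis and oxidative phosphorylation with their state, and macrophages of the marrow's erythroblastic islands engulf the nuclei that maturing red cells expel.

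The libraries came from marrow of femur and tibia of female Albino B6 mice. The mice with bone metastasis had received the mouse breast cancer line E0771 through the caudal artery at 8 weeks of age; the control mice were healthy, and their age was not stated. From each marrow, live single cells were sorted either as general macrophages by CD11b and F4/80 or as niche-specific macrophages by VCAM1, CD163 and CCR3, which gives 4 groups: general normal, general metastatic, niche normal and niche metastatic. Each group held 3 libraries from different mice, 12 in all; both sorts carry the words general macrophages in their titles, so the sort was read from the sorting markers. Red cells had been lysed, total RNA was extracted and ribosomal RNA was depleted with a human, mouse and rat kit. The columns of the niche normal group could not be tied to single samples and are called A, B and C.

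Totals ran from 13688000 to 30332400 counts per library. Rows of small non-coding RNA, haemoglobin and immunoglobulin genes together took 10.2 to 27.9% of these totals. The macrophage marker list (11 rows, all above 3 counts in every library) summed to 786.4 to 1227.9 CPM (counts per 1000000 of the library total after TMM scaling) in general and 2249.7 to 5986.7 CPM in niche libraries. This list includes Vcam1, Cd163 and Ccr3, the sorting markers of niche cells, and Itgam and Adgre1, the genes of CD11b and F4/80. Its sum is therefore not independent of the sort. Markers of other cells also differed between the sorts. Neutrophil markers (9 of 9 rows above 3 counts in every library) summed to 13403.8 to 21782.9 CPM in general against 9172.5 to 11153.1 CPM in niche libraries, and monocyte markers (5 of 5) to 4669.3 to 5085.1 against 716.1 to 1080.9 CPM. Erythroid markers summed to 84.5 to 308.4 CPM in general libraries, where 5 of 12 rows were above 3 counts in all 3 libraries of each group and Klf1 and Epor were at 3 counts or fewer. In niche libraries they summed to 742.2 to 1967 CPM, with 7 rows in normal and 9 in metastatic marrow above 3 counts in all 3. B and plasma cell markers summed to 18.6 to 63.6 CPM (4 of 8 rows) against 402.1 to 1368.4 CPM (6 and 4 of 8), and the 3 epithelial and tumour rows to 1.83 to 15.1 against 0.15 to 33.6 CPM, with Krt8 at 3 counts or fewer throughout. Eosinophil markers, a list that bears on the CCR3 gate, summed to 115.9 to 241.7 CPM in general and 80.0 to 127.2 CPM in niche libraries of normal marrow, which overlapped. In metastatic marrow they summed to 145.5 to 251.7 against 7.78 to 113.7 CPM, without overlap, and 5 and 6 of 7 rows were above 3 counts in all 3 general normal and general metastatic libraries against 1 in each niche group. The small RNA, haemoglobin and immunoglobulin rows together took 22.4 to 23.7% of general and 15.4 to 19.8% of niche libraries in normal marrow. In metastatic marrow they took 19.8 to 27.9% against 10.2 to 17.4%. The part of these other cells and of these rows in the differences between sorts given next was not tested. Fewer cells of a type cannot be told apart from less RNA per cell in these bulk libraries.

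The 13 mitochondrially encoded messages lie close together, and some of their reading frames share bases, which bears on how reads can be assigned to them. In the mm10 genome with the GENCODE M21 annotation they span chrM:2751-3707 (mt-Nd1) to chrM:14145-15288 (mt-Cytb), and only mt-Nd6 (chrM:13552-14070) is on the minus strand. The 3 longest overlaps are printed on the plus strand, 5′ to 3′, with the shared bases in capitals and 20 bases on each side in lower case, first chrM:7907-7989, then chrM:10147-10193, then chrM:13532-13585.
mt-Atp8 and mt-Atp6: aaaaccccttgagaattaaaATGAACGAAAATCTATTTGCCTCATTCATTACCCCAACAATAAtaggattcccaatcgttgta
mt-Nd4l and mt-Nd4: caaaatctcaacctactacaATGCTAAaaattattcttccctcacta
mt-Nd5 and mt-Nd6: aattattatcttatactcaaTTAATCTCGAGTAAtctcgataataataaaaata
The overlap of mt-Atp8 and mt-Atp6 is 43 bases long, that of mt-Nd4l and mt-Nd4 is 7 bases and that of mt-Nd5 and mt-Nd6, which lie on opposite strands, is 14 bases. In the count table, values that were not whole numbers (by more than 0.01) appeared for mt-Nd3 and mt-Nd4l in all 12 libraries, for mt-Co3 in 11, mt-Atp6 in 10, mt-Co2 in 9, mt-Co1 in 8 and mt-Nd4 in 6. The other mitochondrial rows, mt-Atp8, mt-Nd5, mt-Nd6 and mt-Cytb among them, held whole numbers throughout. How shared reads were split is not given in the sources used here, nor is whether strand was used, so reads of mt-Nd5 and mt-Nd6 from their overlap cannot be told apart.

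Mitochondrially encoded messages took a larger part of niche macrophage libraries than of general ones, in normal and in metastatic marrow, while the summed share of the nuclear subunits overlapped between the sorts. The 13 mitochondrial messages made up 0.0846, 0.400 and 0.359% of all counts in general normal libraries 1 to 3, and 1.80, 1.35 and 1.48% in niche normal libraries A to C. In metastatic marrow they made up 0.357, 0.353 and 0.390% in general libraries and 1.63, 1.25 and 1.24% in niche libraries. Every niche library was above every general library, and general normal 1 stood below all others.

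The 76 nuclear structural subunits together made up 0.121, 0.115 and 0.114% of the counts in general normal, 0.148, 0.155 and 0.201% in general metastatic, 0.117, 0.149 and 0.165% in niche normal and 0.138, 0.151 and 0.192% in niche metastatic libraries. The groups overlapped between the sorts and, in niche macrophages, between the marrow states, whereas all 3 general metastatic libraries were above all 3 general normal ones. The ratio of the 13 mitochondrial to the 76 nuclear sums, which does not depend on scaling between libraries, was 0.696, 3.48 and 3.16 in general normal, 2.41, 2.27 and 1.94 in general metastatic, 15.3, 9.05 and 8.98 in niche normal and 11.8, 8.26 and 6.44 in niche metastatic libraries. The lowest niche ratio was thus above the highest general one. No p-value is given for these sums. On a log2 scale the group means of the mitochondrial share differed by 2.74 between the sorts in normal marrow and by 1.89 in metastatic marrow, against pooled SDs between libraries of 0.90 and 0.17. The nuclear share differed by 0.29 and -0.07, against pooled SDs of 0.18 and 0.24. The sum weighs each subunit by its counts, whereas the median over the 76 of log2(CPM + 0.5), which weighs them alike, was lower in niche macrophages, by -2.67 in normal and -1.52 in metastatic marrow. With haemoglobin, immunoglobulin and small RNA rows left out of the total, the mitochondrial share differed by 2.63 and 1.71.

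**Figure D1:**
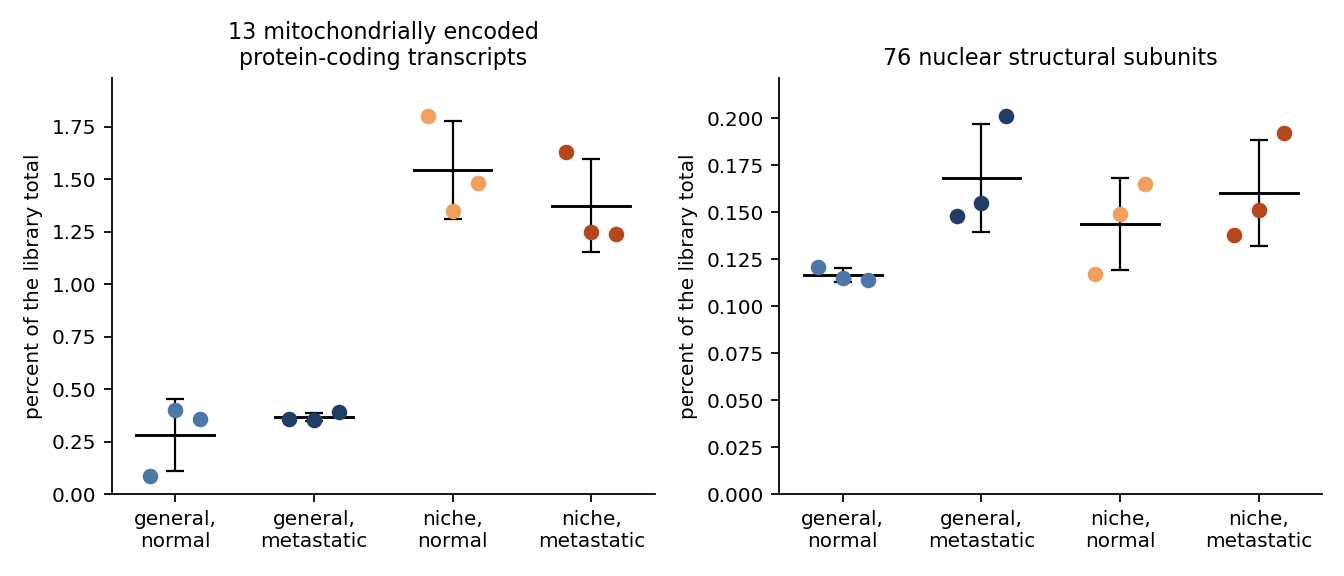
Percent of each library's counts in the 13 mitochondrially encoded protein-coding transcripts (left) and in the 76 nuclear structural subunits (right), by group; each point is 1 library, horizontal bars are group means and error bars are SD (n = 3). Niche libraries lie between 1.24 and 1.80% on the left and general libraries between 0.0846 and 0.400%, while the groups lie close together on the right.

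Gene by gene, 99 of the 124 rows passed the filter on low counts and were tested among 12882 genes with edgeR's quasi-likelihood test, counting a gene as called at a Benjamini-Hochberg adjusted p under 0.05. In normal marrow 13 rows differed between niche and general macrophages: 12 of the 13 mitochondrial messages were higher in niche macrophages, and Cox4i1, which encodes a nuclear subunit of complex IV, was lower. Over all genes tested 2.47% were called, 1.5% higher and 0.97% lower. In metastatic marrow 7 rows were called, all of them mitochondrial messages and all higher in niche macrophages (mt-Nd1, mt-Nd4, mt-Nd5, mt-Nd6, mt-Cytb, mt-Co1 and mt-Atp6), where 0.831% of all genes were called and 0.574% were called higher. The median log2 fold change of the 13 messages was 2.52 in normal and 1.68 in metastatic marrow. That of the 68 nuclear subunits tested was 0.18 and -0.43, and that of all genes tested 0.19 and 0.04. The nuclear median of normal marrow changed sign with the fit and was -0.23 without niche normal B, -0.55 without niche normal C, -0.57 with limma's voom and 0.58 with only the 6 libraries compared. All 13 messages were higher in every niche library than in every general library, which 1.96% of the genes tested were. DESeq2 called all 13 messages in normal marrow (15.4% of all genes called) and 10 in metastatic marrow (4.05%), adding mt-Atp8 in the first and mt-Nd2, mt-Nd3 and mt-Co3 in the second. In the 6 fits of normal marrow that each left out 1 library, mt-Nd4l lost its edgeR call in 4, namely without general normal 1, 2 or 3 or niche normal A. mt-Co2 lost it in 2, without general normal 3 or niche normal A, and the other 10 messages kept theirs in all 6.

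**Figure D2:**
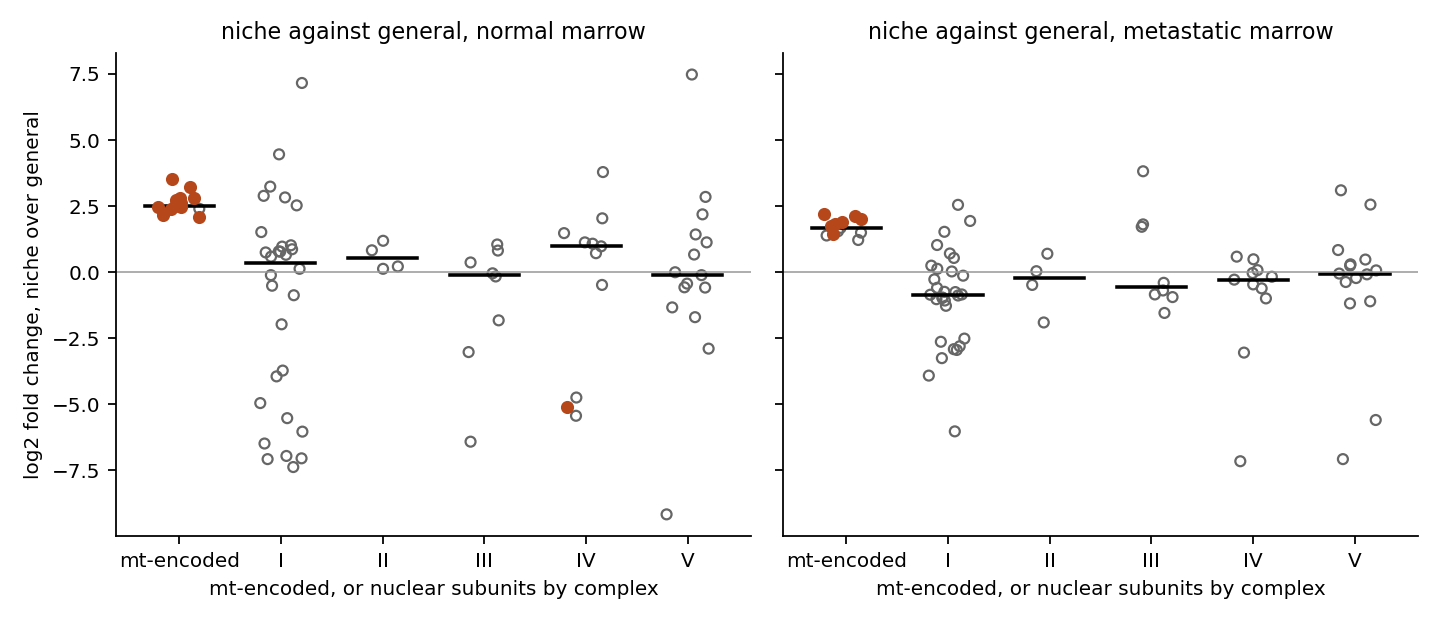
Log2 fold change of niche over general macrophages in normal (left) and metastatic marrow (right) for the 13 mitochondrially encoded messages and for the tested nuclear subunits of complexes I to V; filled points passed an adjusted p under 0.05 and black bars are medians. The mitochondrial messages sit together above 0 in both panels, while the nuclear subunits of complexes I, III, IV and V spread to both sides of 0.

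Of the 7 complex I subunits that the mitochondrial genome encodes, all were called in normal marrow. mt-Nd5, part of the proton-pumping membrane arm, measured 125.7, 431.9 and 405.8 CPM in general normal, 368.3, 437.1 and 371.8 CPM in general metastatic, 2380.0, 1507.8 and 2012.9 CPM in niche normal and 1775.8, 1390.3 and 1180.3 CPM in niche metastatic libraries. The lowest niche library was thus well above the highest general one. mt-Nd5 was higher in niche macrophages by 2.62 ± 0.35 (log2, SE; edgeR adjusted p = 0.000173, n = 3) in normal and by 1.89 ± 0.34 (edgeR adjusted p = 0.00545) in metastatic marrow, and it was the only message called in metastatic marrow whichever of its 6 libraries was left out.

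mt-Nd6, the membrane-arm subunit read from the other strand, had the largest log2 fold change of the 13 in both marrow states. It measured 8.9, 50.3 and 70.8 CPM in general normal, 61.7, 80.0 and 50.2 CPM in general metastatic, 547.9, 386.8 and 543.0 CPM in niche normal and 369.2, 341.0 and 184.3 CPM in niche metastatic libraries, without overlap between the sorts. The differences were 3.51 ± 0.53 (edgeR adjusted p = 0.00061) and 2.22 ± 0.50 (edgeR adjusted p = 0.0369), and the second was kept in 1 of the 6 fits that each left out 1 library. mt-Nd4, mt-Atp6, mt-Nd1, mt-Cytb and mt-Co1 were kept in 4, 2, 1, 1 and 1 of these 6 fits in metastatic marrow. mt-Nd1 differed by 2.80 ± 0.40 (edgeR adjusted p = 0.000334) and 1.74 ± 0.38 (0.0317), and mt-Nd4 by 2.47 ± 0.42 (0.00207) and 2.13 ± 0.41 (0.0117). mt-Nd2, mt-Nd3 and mt-Nd4l passed in edgeR in normal marrow, with 2.52, 2.48 and 3.24, and missed the threshold in metastatic marrow, with 1.68, 1.55 and 1.68.

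mt-Cytb, the cytochrome b of complex III and its only mitochondrially encoded subunit, measured 21.9, 131.6 and 99.9 CPM in general normal against 689.6, 542.4 and 451.5 CPM in niche normal libraries. In metastatic marrow the general libraries held 121.0, 79.8 and 132.5 CPM and the niche libraries 584.3, 439.1 and 329.1 CPM. The log2 differences were 2.74 ± 0.46 (edgeR adjusted p = 0.00195) and 2.02 ± 0.45 (0.0336).

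Complex IV takes mt-Co1, mt-Co2 and mt-Co3, which form its catalytic core. mt-Co2 was the most abundant of the 13 per length, at a group mean of 1169.4 CPM per kilobase of its longest annotated transcript in general normal and 4958.9 in niche normal libraries. On that scale the nuclear ATP synthase subunit Atp5b stood at 41.0 and 65.1. mt-Co2 read 140.3, 1360.6 and 898.8 CPM in general normal and 5202.5, 2215.4 and 2757.8 CPM in niche normal libraries, and its log2 difference was 2.09 ± 0.50 (edgeR adjusted p = 0.0299). Those of mt-Co1 and mt-Co3 were 2.16 ± 0.34 (0.000996) and 2.38 ± 0.37 (0.000925). In metastatic marrow mt-Co1 passed with 1.46 ± 0.33 (0.0388), whereas mt-Co2 (1.5 ± 0.49, 0.328) and mt-Co3 (1.39 ± 0.36, 0.096) did not.

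For complex V, mt-Atp6, the subunit that forms part of the proton path, measured 58.6, 195.2 and 198.7 CPM in general normal and 1368.2, 924.0 and 897.5 CPM in niche normal libraries. It was higher in niche macrophages by 2.82 ± 0.38 (edgeR adjusted p = 0.000202) in normal and by 1.82 ± 0.37 (0.0157) in metastatic marrow. mt-Atp8, which overlaps it, was the 1 message of the 13 that passed in neither by edgeR, with 2.40 ± 0.82 (0.15) and 1.22 ± 0.78 (0.836). It held 2.19, 13.4 and 27.7 CPM in general normal and 113.4, 50.4 and 65.1 CPM in niche normal libraries, so its groups did not overlap either.

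**Figure D3:**
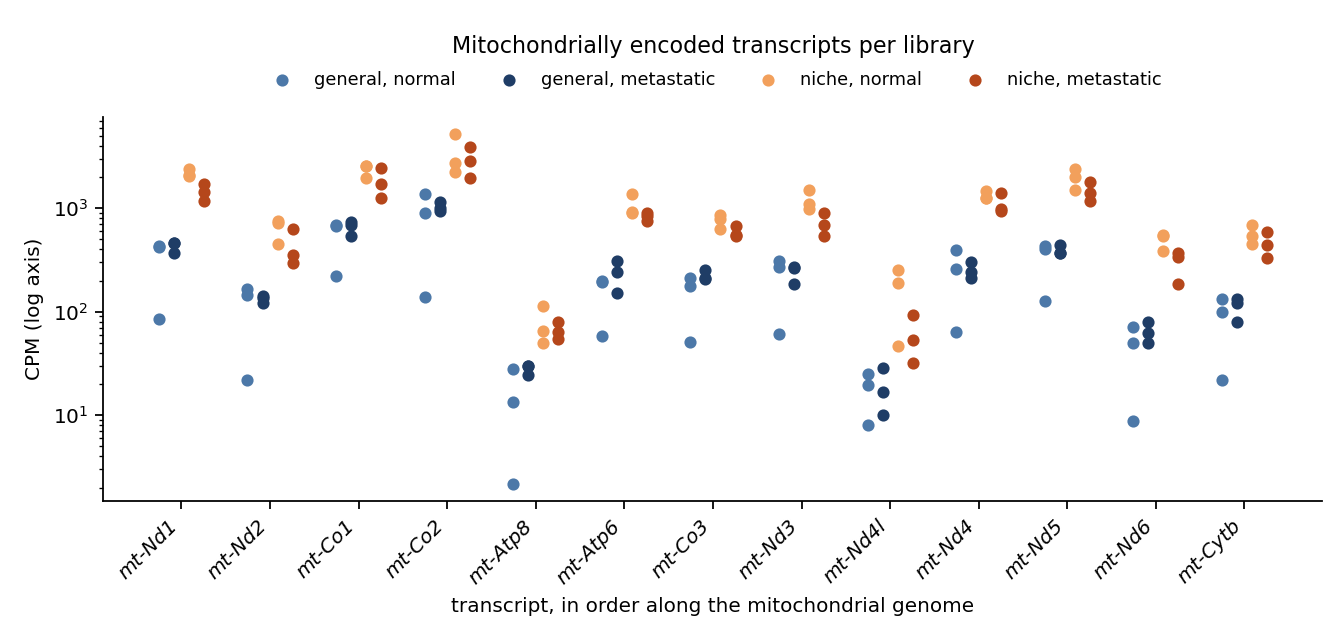
CPM (log axis) of the 13 mitochondrially encoded protein-coding transcripts in their order along the mitochondrial genome; each point is 1 library, coloured by group. For each transcript the orange and brown niche libraries lie above the blue general libraries, and the lowest point of each is a general normal library.

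General normal 1 was low for all 13 messages, at 0.106 to 0.36 of the mean of the other 2 general normal libraries (median 0.2). Without it, 11 mitochondrial messages were called in normal marrow, their median log2 fold change was 2.04 and Cox4i1 was not called, where 1.24% of all genes were called. Without it the group means of the mitochondrial share differed by 2.02 and those of the ratio by 1.70 on the log2 scale, in place of 2.74 and 2.45. Its 12719 counts over the 13 messages compare with 73958 and 74505 in the other 2 libraries of its group, while its 18276 counts over nuclear subunits compare with 21267 and 23602.

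The mitochondrial messages did not keep the same proportions between the sorts. Complex I messages made up 43.0, 40.3 and 44.1% of the mitochondrial protein-coding counts in general normal and 45.6, 53.1 and 50.3% in niche normal libraries, and 40.8, 41.6 and 38.0% against 43.6, 47.4 and 45.3% in metastatic marrow. Complex IV messages made up 47.5, 51.9 and 47.1% against 43.4, 35.7 and 40.3%, and 49.3, 47.4 and 53.3% against 46.2, 40.8 and 43.0%. In both marrow states, the complex I part was higher and the complex IV part lower in all 3 niche libraries than in all 3 general libraries. These parts share 1 total, so that a rise of one lowers the other.

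The ribosomal RNAs of the mitochondrion are targets of depletion kits, and few of their reads remained. mt-Rnr1 had 0 to 2 counts in each of the 6 general libraries, 1, 349 and 545 counts in niche normal and 65, 329 and 348 counts in niche metastatic libraries. mt-Rnr1 was thus detected in 5 of 6 niche libraries, but the edgeR adjusted p was 0.186 in normal and 0.428 in metastatic marrow; DESeq2 called it in both. mt-Rnr2 ranged from 3 to 463 counts and was over 100 counts in general normal 3, niche normal C and niche metastatic 3. The 5 transfer RNA rows were too low to test, with 0 to 36 counts in all per library.

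Among the nuclear subunits, Cox4i1 was the 1 row that edgeR called in any comparison. Of the 68 nuclear subunits, DESeq2 called 11 between the sorts in normal marrow, where it called 15.4% of all genes, and 0 in metastatic marrow (4.05%). Between the marrow states it called 2 in general (1.19%) and 5 in niche macrophages (8.19%). The 11 and the 5 are near those shares of all genes. It encodes subunit 4 of cytochrome c oxidase, one of the first subunits to join the catalytic core. Cox4i1 measured 48.5, 14.7 and 16.9 CPM in general normal, 20.1, 40.5 and 35.7 CPM in general metastatic, 1.21, 0.544 and 0.599 CPM in niche normal and 36.1, 26.6 and 38.9 CPM in niche metastatic libraries. The 3 niche normal libraries, which held 15, 11 and 12 counts, stood below the other 9, which ranged from 249 to 1057 counts.

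Cox4i1 was lower in niche than in general macrophages of normal marrow by -5.08 ± 1.25 (log2, SE; edgeR adjusted p = 0.0344, n = 3), and the difference in metastatic marrow was 0.08 ± 1.05. Within niche macrophages it was higher in metastatic than in normal marrow by 5.43 ± 1.27, short of the threshold (edgeR adjusted p = 0.16), as was the difference of the marrow effect between the sorts, 5.16 ± 1.58 (0.452). DESeq2 called Cox4i1 in both of these, with adjusted p of 5.7e-08 and 0.00101. The call in normal marrow was lost in 5 of the 6 fits that left out 1 library, being kept only without niche normal A. Cox4i2, the other isoform of subunit 4, was not analysed here. None of the other nuclear complex IV subunits passed in edgeR. Of these, DESeq2 called Cox6a1 and Cox6c in normal marrow, Cox6a1 between the marrow states of general macrophages and Cox6c and Cox7a2 between those of niche macrophages. Cox5a, which is known to pair with subunit 4, measured 51.3, 116.5 and 154.5 CPM in general normal and 38.2, 52.0 and 139.6 CPM in niche normal libraries, which overlapped.

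**Figure D4:**
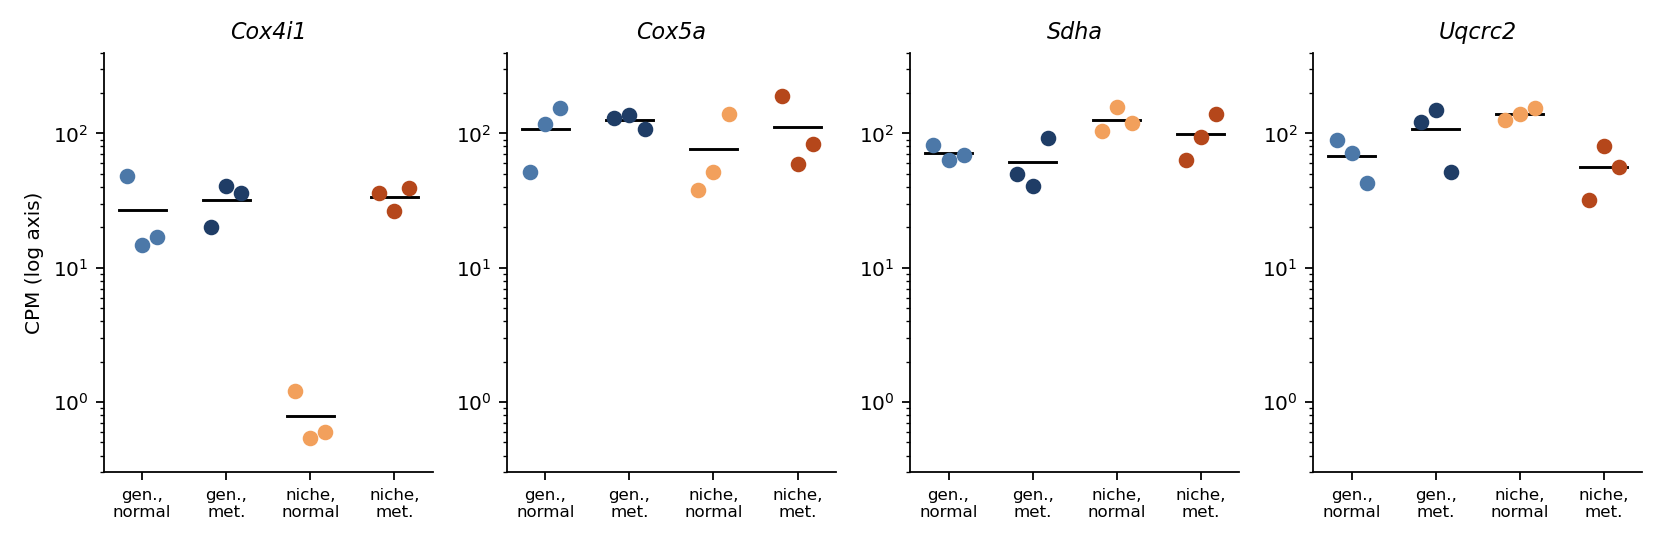
CPM (log axis) of 4 nuclear subunits by group, with 1 point per library and horizontal bars at group means. Cox4i1 is at 0.544 to 1.21 CPM in the 3 niche normal libraries and above 14 CPM in the other 9, while Cox5a, Sdha and Uqcrc2 lie within 1 order of magnitude across all 12 libraries.

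Complex II, which has no mitochondrially encoded subunit, showed no called difference, by edgeR or by DESeq2. Sdha, the flavoprotein that oxidises succinate, measured 81.6, 63.8 and 68.8 CPM in general normal and 104.3, 156.9 and 119.0 CPM in niche normal libraries, which did not overlap. In metastatic marrow it measured 50.2, 40.3 and 92.2 CPM against 63.7, 94.1 and 139.0 CPM, which did. Its log2 differences were 0.83 ± 0.46 (edgeR adjusted p = 0.32) and 0.70 ± 0.45 (0.839). Sdhd, a membrane anchor, held 9 counts in niche normal A and 2158 and 1455 in niche normal B and C. Sdhb, the iron-sulfur subunit, held 6, 417 and 735 counts in the same libraries and 7, 8 and 483 in niche metastatic ones.

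In complex III, Uqcrc2, a core subunit, measured 88.6, 70.9 and 42.6 CPM in general normal, 122.5, 150.0 and 52.0 CPM in general metastatic, 124.9, 139.6 and 153.8 CPM in niche normal and 32.1, 80.8 and 56.2 CPM in niche metastatic libraries. Its niche libraries were above the general ones in normal marrow (1.05 ± 0.49, unadjusted p = 0.0428, edgeR adjusted p = 0.255) and overlapped them in metastatic marrow (-0.94 ± 0.48, edgeR adjusted p = 0.632). The 8 complex III subunits, summed, stood at 201.7, 184.2 and 122.3 CPM in general normal and higher, at 259.6, 246.1 and 281.5 CPM, in niche normal libraries. In metastatic marrow the order was the opposite, with 251.1, 298.4 and 283.0 CPM in general and 149.9, 197.9 and 181.0 CPM in niche libraries, but with unscaled totals these overlapped, at 227 to 303 against 161 to 228 per 1000000 counts. The sums of complexes I, II, IV and V overlapped between the sorts in normal marrow, and those of II, IV and V in metastatic marrow. There the complex I sum was lower in niche libraries, at 215 to 327 against 381 to 427 CPM, but overlapped with unscaled totals. No p-value is given for these sums. The difference of the Uqcrc2 marrow effect between the sorts was -1.99 ± 0.69 (edgeR unadjusted p = 0.00911, adjusted p = 0.46) and so missed the threshold.

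Complex V held the largest part of the nuclear subunit counts, 28.4 to 44.3% across the 12 libraries, and complex I 16.7 to 27.7% although it has the most subunits. Atp5b, the catalytic beta subunit, measured 116.2, 64.8 and 54.5 CPM in general normal, 142.5, 111.1 and 222.6 CPM in general metastatic, 136.1, 154.3 and 83.7 CPM in niche normal and 95.3, 189.1 and 122.6 CPM in niche metastatic libraries. None of its 4 comparisons passed. Atp5o, a subunit of the stalk that holds the catalytic head, was lower in all 3 niche metastatic libraries (33.7, 51.0 and 66.4 CPM) than in all 3 general metastatic ones (149.3, 101.4 and 93.2 CPM), with -1.18 ± 0.51 and an unadjusted p of 0.0316 (edgeR adjusted p = 0.543). Ndufs1, the large iron-sulfur subunit of complex I, measured 17.5, 79.1 and 20.1 CPM in general normal and 98.8, 28.5 and 56.2 CPM in niche normal libraries, which overlapped.

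Most nuclear subunits were present in some libraries of a group and nearly absent from others. Per library, 10 to 43 of the 76 subunits had 3 counts or fewer, and 20 to 56 had 100 or more. Over all 76, 52 were at 3 counts or fewer in 1 library and at 100 or more in another library of the same group. Among the tested rows this held for 45 of 68 nuclear subunits (66.2%), for 46.5% of all genes tested and for none of the 13 mitochondrial messages. By complex, it held for 30 of 36 subunits of complex I, 1 of 4 of complex II, 4 of 8 of complex III, 8 of 11 of complex IV and 9 of 17 of complex V.

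Cox6c, a small complex IV subunit, is one example: it held 55, 160 and 235 counts in general normal, 522, 359 and 311 in general metastatic, 2, 7 and 1 in niche normal and 3, 301 and 875 in niche metastatic libraries. Ndufa7, of complex I, held no count in general normal, 101, 32 and 222 counts in general metastatic and at most 3 counts in each niche library. Ndufb6, also of complex I, was above 100 counts in 6 libraries from 3 groups and at 2 counts or fewer in the other 6. None of these 3 passed in edgeR. DESeq2 called Cox6c between the sorts in normal marrow and between the niche marrow states, and Ndufb6 between the sorts in normal marrow and between the general marrow states. Of the 76, 17 had at least 10 counts in all 12 libraries and 11 had at least 100, namely Atp5b, Atp5c1, Atp5l, Atp5o, Cox5a, Ndufb5, Ndufs1, Sdha, Uqcrc1, Uqcrc2 and Uqcrfs1.

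Of the 16 assembly factors and regulators, 13 showed this mix of present and nearly absent libraries within a group, 12 were tested and edgeR called none. DESeq2 called Ndufaf1 and Ndufaf4 between the sorts in normal marrow, Sdhaf3 in metastatic marrow, Ndufaf4 between the general and Ndufaf1 between the niche marrow states. Cox7a2l, which helps join complexes III and IV into supercomplexes, was at 1152 counts or more in all 12 libraries, with 98.4 to 139.5 CPM in general normal and 93.0 to 219.8 CPM in niche normal libraries (0.45 ± 0.38, edgeR adjusted p = 0.578). Ndufaf4, a complex I assembly factor, held 0, 2 and 0 counts in general normal and 87, 238 and 335 in general metastatic libraries, which did not overlap, and its edgeR adjusted p was 0.944. Cox6a2, the isoform of heart and skeletal muscle, was at 138 counts in niche metastatic 1 and at 0 in the other 11 libraries. Its counterpart Cox6a1 held 128 and 334 counts in general metastatic 2 and 3 and 355 in niche metastatic 3, and 0 to 2 counts elsewhere. The other 11 rows carry the names of pseudogenes or gene copies; 6 of them have GENCODE's type for processed pseudogenes. Reads of such rows and of the genes they copy can be hard to tell apart, so their counts are uncertain.

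**Figure D5:**
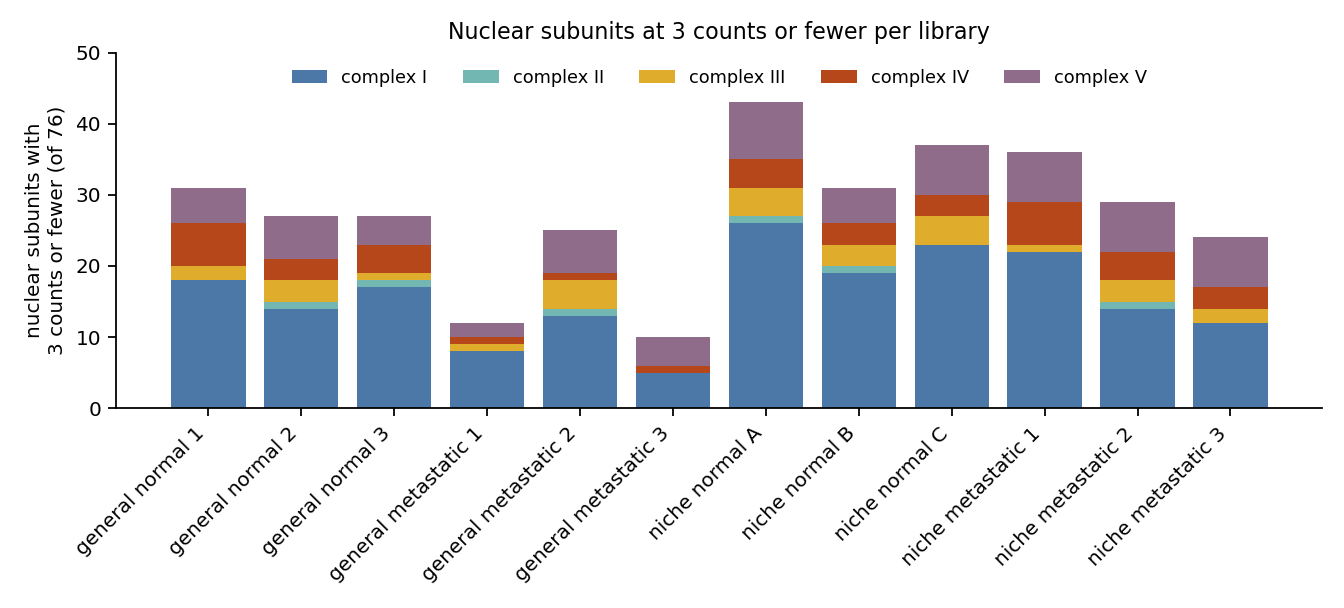
Number of the 76 nuclear structural subunits with 3 counts or fewer in each library, stacked by complex. The bars run from 10 in general metastatic 3 to 43 in niche normal A, and complex I subunits make up the largest segment in all 12.

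The spread between libraries of 1 group differed accordingly. The SD of log2(CPM + 0.5) within groups had a median of 0.72 over the 13 mitochondrial messages, 1.72 over the 68 tested nuclear subunits and 1.62 over all genes tested. Subunits with shorter transcripts were at 3 counts or fewer in more libraries: across 74 subunits with an annotated length, Spearman's rho between length and the number of such libraries was -0.40, a description across genes that share the same libraries. Across 10352 tested protein-coding genes the same correlation was -0.34. The 20 subunits that never fell to 3 counts or fewer had a median longest transcript of 1831.5 bases, and the 54 others 922.5 bases.

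Between metastatic and normal marrow, edgeR called no row of the 124, in general macrophages (0.0155% of all genes called, 2 genes) or in niche macrophages (0.00776%, 1 gene). In general macrophages all 13 mitochondrial messages had a positive log2 fold change, with a median of 0.36, but without general normal 1 the median was -0.06, and the log2 difference of their summed share was -0.05. Of the nuclear subunits, 46 of 68 were positive with a median of 0.44, where the median of all genes tested was -0.01, and 6 of them, all higher in metastatic marrow, were at an unadjusted p under 0.05 against 660 of the 12882 genes. Their summed share of counts was above that of the normal libraries in all 3 libraries, and subunits at 3 counts or fewer were 31, 27 and 27 of 76 in normal and 12, 25 and 10 in metastatic marrow. The general metastatic libraries were also the deepest, at 30332400, 24278100 and 25603900 counts against 15042000, 18500600 and 20777200, and the part of depth in this was not tested. Markers of other cells moved as well: erythroid markers summed to 84.5 to 142.5 CPM in general normal and 147.6 to 308.4 CPM in general metastatic libraries. B and plasma cell markers summed to 53.4 to 63.6 against 18.6 to 38.6 CPM and macrophage markers to 1061.6 to 1227.9 against 786.4 to 893.6 CPM, and their part was not tested.

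In niche macrophages all 13 mitochondrial messages had a negative log2 fold change, with a median of -0.38 against -0.17 for all genes tested. With unscaled library totals the medians were -0.14 and 0.06, and mt-Atp8 and mt-Co2 were positive, as they were without niche normal A. With at least 10 counts required in every library mt-Atp8 was positive. Macrophage markers were lower there too, at 2249.7 to 4166.3 CPM in metastatic against 4977.7 to 5986.7 CPM in normal marrow, and their part was not tested. Of the 13, 4 were lower in all metastatic than in all normal niche libraries (mt-Nd1, mt-Nd3, mt-Nd6 and mt-Atp6), as were 7.1% of the genes tested. With unscaled totals only mt-Nd1 of these did not overlap, against 4.64% of the genes tested. mt-Nd1, at 2379.0, 2027.4 and 2104.0 CPM in normal and 1703.9, 1432.1 and 1182.6 CPM in metastatic marrow, is the one apart on both scales, and its difference of -0.59 ± 0.37 did not pass (edgeR adjusted p = 0.516). mt-Nd4l, with -1.48 ± 0.68, was the 1 message at an edgeR unadjusted p under 0.05 (unadjusted 0.0437, edgeR adjusted p = 0.389). The nuclear subunits had a median of 0.16, with 36 of 68 positive and 10 at an unadjusted p under 0.05 against 1642 of all genes. That median was 1.19 without niche normal B, 1.08 without niche normal C and -0.07 without niche metastatic 1.

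The difference of the marrow effect between the sorts was negative for all 13 mitochondrial messages, with a median of -0.92 against -0.13 for all genes tested. Without general normal 1 the median of the messages was -0.49, and mt-Nd4 was positive. None of the 124 rows passed that test, nor did any gene (0.0% called). At an unadjusted p under 0.05 there were 0 of the 13 messages, 5 of the 68 nuclear subunits and 1016 of all genes, and the smallest edgeR unadjusted p of a mitochondrial message was 0.0588 for mt-Nd1 (-1.06 ± 0.53). A larger gap between the sorts in normal than in metastatic marrow was therefore not shown by this test. DESeq2 called 3 rows in general macrophages (1.19% of all genes), 6 in niche macrophages (8.19%) and 3 for the difference of effects (3.46%), none of them a mitochondrial message.

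A further 6 lists of mitochondrial genes were read in the same fit, and edgeR called none of their genes in any comparison of the sorts or the marrow states. In normal marrow, niche against general macrophages, the median log2 fold changes were 0.88 for 17 genes of the tricarboxylic acid cycle, 0.54 for 13 regulators of mitochondrial biogenesis, 0.22 for 20 electron carriers and biogenesis factors of complexes III and IV, 0.01 for 13 uncouplers, carriers and porins, -0.06 for 63 mitochondrial ribosomal proteins and -0.30 for 30 genes of mitochondrial DNA upkeep and expression. In metastatic marrow the same lists stood at 0.04, 0.10, 0.06, -0.37, -0.35 and 0.64, where all genes tested stood at 0.04. At an edgeR unadjusted p under 0.05 were 3, 1, 5, 2, 12 and 6 of their genes in normal and 0, 0, 1, 2, 4 and 1 in metastatic marrow. Together these are 18.6% of the 156 list genes tested in normal marrow, near the 19.0% of all genes, and 5.13% in metastatic marrow, below the 8.6% of all genes. None of these medians reached those of the mitochondrially encoded messages.

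Tfam, which packages mitochondrial DNA and starts its transcription, held 154, 236 and 109 counts in general normal and 519, 42 and 8 counts in niche normal libraries. Ppargc1a, a coactivator of mitochondrial biogenesis, was at 0 to 2 counts in 11 libraries and at 309 in niche normal B. Cycs, the cytochrome c that carries electrons to complex IV, ranged from 5.4 to 3016.8 counts. Ucp2, an inner membrane carrier, was steady at 376.6 to 757.4 CPM and did not pass, with -0.40 ± 0.26 in normal marrow (edgeR adjusted p = 0.418).

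Because nuclear subunits are known targets of the factors NRF1, GABP and YY1, their promoters were searched for short cores of these factors' motifs. RefSeq promoters (GRCm38.p6, 250 bases before to 50 after the start) matched 64 of the 76 subunits. On either strand, TGCGCA, the short NRF1 core, was found in 28.1% of these promoters and in 11.0% of all 17492 protein-coding promoters of the table, and its longer form TGCGCATGC, which contains it, in 7.81% and 2.23%. CCGGAAG, the core bound by ETS factors such as GABP, was found in 26.6% and 12.9%, and AAGATGGCG, the YY1 core, in 10.9% and 2.14%. A match is a description of the letters and not of binding.

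Complex II is shown as the complex with nuclear subunits alone. The 120 bases before the start are printed 5′ to 3′ on the gene's strand, with matches in capitals. They are chr13:74350241-74350360 for Sdha and chr9:50603850-50603969 for Sdhd, both on the minus strand, and chr4:140961151-140961270 for Sdhb on the plus strand.
Sdha: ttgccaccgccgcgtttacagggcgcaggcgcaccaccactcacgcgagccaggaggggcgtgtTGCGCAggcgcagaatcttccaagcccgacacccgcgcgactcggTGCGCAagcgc
Sdhd: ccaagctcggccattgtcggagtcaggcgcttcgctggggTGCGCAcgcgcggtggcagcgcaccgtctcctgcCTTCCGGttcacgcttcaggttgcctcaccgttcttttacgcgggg
Sdhb: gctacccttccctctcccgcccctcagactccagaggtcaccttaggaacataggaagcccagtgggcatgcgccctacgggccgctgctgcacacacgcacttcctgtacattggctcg
Sdha, whose lowest library held 894 counts, has TGCGCA at 56 and 11 bases before its start. Sdhd, which fell to 9 counts in niche normal A, has TGCGCA at 80 bases and CTTCCGG, the ETS core read from the other strand, at 46 bases before its start, and a further TGCGCA at 189 bases, outside the bases shown. Sdhb has none of the 4 cores in the bases shown. Over the whole window searched, which runs to 50 bases after the start, the ETS core was found in 2 of these 3 genes. Sdhc was not among the subunits matched to a promoter and is not shown.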

How the data were processed

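RNA was sequenced from 12 libraries, 3 for each combination of sort (general or niche macrophages) and marrow (normal or metastatic). The authors deposited 1 table of expected counts per gene, of which 73.9% were whole numbers. The submitters' processing notes name STAR 2.7.3a, Partek, DESeq2 1.40.2, R 4.3.1 and the mm10 build, without their roles; the counting program, annotation and strand setting are not given in the sources used here. Values were rounded before testing.

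All 12 libraries entered 1 fit of 4 group means in edgeR 4.0.16 (R 4.3.3), with TMM scaling, filterByExpr, the quasi-likelihood test and Benjamini-Hochberg adjustment over the 12882 genes tested. The common biological coefficient of variation was 1.3. CPM are per TMM-scaled library total. Shares of counts use the unscaled total. In each group, libraries differed by far more than sampling noise, with a chi-square per degree of freedom of 139 or more, and all were kept.

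The members, classes, lists and tests were chosen with earlier results of these data known. Genes named are the mitochondrial rows, every row called, the 2 nuclear subunits of each complex with the smallest p in each comparison of sorts, the complex II subunits, isoform pairs, the 3 rows with the smallest p in each comparison of marrow states and 5 pathway genes, of which the report gives a part. Atp5b, Ndufs1, Cox5a, Ndufb5, Atp5l, Atp5c1, Uqcrc1 and Uqcrfs1 were named after their values were seen, for having at least 100 counts in all libraries.

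Alternatives were other scalings and filters, DESeq2 1.42.0, limma 3.58.1 (voom), robust dispersion, fits to the compared libraries alone, a replicate block and leaving out each library. The main fit did not pair libraries by the numbers in the titles, since the replicates of a group came from different mice. Deviations of same-numbered libraries of different groups correlated at -0.007 to 0.034, and those of differently numbered libraries at -0.033 to 0.014. Whether same-numbered general and niche libraries share a mouse cannot be told from these correlations. Positions are from GENCODE M21 (118 of 124 symbols matched) and promoters from RefSeq. Protein sequences were not used here.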

Additional observations from a re-analysis of the deposited data

How the results depend on the processing

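The 12 mitochondrial messages called in normal marrow were 8 to 13 under the alternatives, and the 7 in metastatic marrow 3 to 11. In normal marrow 13 members were called (2.47% of all genes), against 28 with DESeq2 (15.4%), of which 11 were nuclear subunits, and 8 when only the 6 libraries compared were fitted (1.7%). In metastatic marrow 7 were called (0.831%), against 12 with DESeq2 (4.05%), 11 with only the 6 libraries (0.854%) and 3 with the 9 libraries whose column number matches a title number (0.842%), an alternative chosen after seeing the data. Adding the replicate block to those 9 libraries gave 6 (0.948%); the block was run for 1 other comparison, the marrow states of general macrophages, where 0 members were called with and without it. Leaving out 1 library gave 10 to 12 members in normal marrow and 1 to 6 in metastatic marrow: 2 without any of the 3 general libraries, 1 without niche metastatic 1, 3 without niche metastatic 2 and 6 without niche metastatic 3. Fewer libraries were compared in each of these fits.

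Against the counts of 0 between marrow states, DESeq2 called 3 members in general and 6 in niche macrophages and 3 for the difference of effects, and a filter of at least 10 counts in every library, which tests fewer genes, called 1 in niche macrophages (Cox4i1). The call of Cox4i1 in normal marrow was kept under 6 of 9 alternatives, with adjusted p from 1.65e-07 to 0.272 over all fits.

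The log2 difference of the mitochondrial share between sorts in metastatic marrow was 1.71 without haemoglobin, immunoglobulin and small RNA rows and 1.65 with TMM-scaled totals, and that between marrow states in niche macrophages was -0.42 with TMM-scaled totals. The nuclear share between sorts in metastatic marrow was -0.32 with TMM-scaled totals. With the median over members of log2(CPM + 0.5) in place of the sum, the nuclear log2 difference was -2.67 and -1.52 between sorts in normal and metastatic marrow, 0.78 and 1.92 between marrow states in general and niche macrophages, and that of the ratio was 5.58, 3.42 and, in niche macrophages, -2.25. These medians weigh all 76 subunits alike, including those at 3 counts or fewer; the cause of the other shifts was not tested. Unscaled totals moved the median of all genes from 0.04 to 0.29 between sorts in metastatic marrow and from -0.17 to 0.06 between marrow states in niche macrophages. The overlap of groups on unscaled totals was looked at after seeing the data. No called value changed sign. With at least 10 counts in every library 31 members were tested, and 1 nuclear subunit was called in normal and 0 in metastatic marrow.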
